A study of Rattus norvegicus with 6 samples.

Results

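The Rab GTPases are described here in cultured neonatal rat ventricular myocytes (NRVM), the beating muscle cells of newborn rat hearts. The members are all rows of the expression table whose symbol is Rab, a number and at most one letter, which gave 54 of 13843 rows. They carry 53 symbols, because Rab21 stands on 2 rows, and all 53 matched a RefSeq symbol. RefSeq lists 58 rat symbols of this form, and the other 5 (Rab17, Rab29, Rab37, Rab42 and Rab44) were not analysed here. By the traffic step each is known for, 23 rows were placed among the secretory Rabs, 23 among the endosomal Rabs and 8 among others. RNA was sequenced in 6 libraries, 2 per group, and every group had phenylephrine (PE), an adrenergic agonist that makes cultured myocytes grow, for 3 days. In the PE+TSA+shJIP1 group the cells had PE, TSA and a short hairpin against JIP1, the scaffold protein of the JNK pathway encoded by Mapk8ip1, which one label also calls a knockout. In the PE+TSA group they had PE, TSA and a control hairpin, and in the PE group PE and the control hairpin. TSA is not spelled out in the labels and commonly stands for the histone deacetylase inhibitor trichostatin A. Whether a group's libraries stem from separate cultures is not stated in the labels, so p-values measure the spread between these libraries, which may be technical.

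A Rab is a small GTPase that marks the membrane of one transport step. Exchange factors load it with GTP, which lets it bind effectors such as motors, tethers and fusion factors, and GTPase-activating proteins switch it off. A lipid anchor added by a prenylating enzyme (Rabggta and Rabggtb) holds it in the membrane until it is extracted for another round. In heart muscle, endosomal Rabs return receptors and ion channels to the cell surface and secretory Rabs carry new membrane proteins and stored peptides outward. JIP1 itself links cargo to the motor kinesin, mostly as shown in neurons.

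The values are the authors' FPKM, fragments scaled by transcript length and library size, and changes are differences of log2(FPKM + 1) ± standard error, 2 libraries against 2. That scale understates the change of low genes. A change is called where the limma p-value, adjusted over the 10359 features averaging 1 FPKM or more, was under 0.05, and 47 of the 54 Rab rows were among those features. Low values move in whole-read steps, and by these the PE replicate 2 library was estimated as 20.8 times shallower than PE replicate 1. The other libraries had 0.722 to 1.34 times the depth of PE replicate 1. In PE replicate 2, 9 Rab rows are listed at 0, against 1 to 4 in the other libraries. A value of 0 is no proof of absence, since Rpl32, a ribosomal protein gene used by all cells, is listed at 0 in 4 libraries. Mapk8ip1 had 1.80 and 3.65 FPKM with the JIP1 hairpin, against 14.6 and 17.9 FPKM in PE+TSA, and its change of -2.25 ± 0.34 did not pass the test (adjusted p = 0.077). The PE libraries had 3.77 and 4.39 FPKM of it. All 10 cardiomyocyte markers were listed above 0 in every library, with a summed level of 5936 to 11092 FPKM in PE+TSA+shJIP1, 5867 to 11824 FPKM in PE+TSA and 21050 to 25994 FPKM in PE.

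Sequences upstream of 4 Rab genes are shown because the results turn on them. Rab6b, Rab10 and Rab39a were each called in a comparison, Rab39a in a direction fixed by the filter, and Rab3a had the widest difference between groups. Each is the 300 bases around the RefSeq start of the rat gene (250 before, 50 after, build GRCr8, read 5′ to 3′ on the gene's strand). Capitals mark GC boxes, the letters GGGCGG or their reverse complement CCGCCC, which are common in promoters of broadly used genes.
Rab6b, chr8:112573973-112574272, plus strand: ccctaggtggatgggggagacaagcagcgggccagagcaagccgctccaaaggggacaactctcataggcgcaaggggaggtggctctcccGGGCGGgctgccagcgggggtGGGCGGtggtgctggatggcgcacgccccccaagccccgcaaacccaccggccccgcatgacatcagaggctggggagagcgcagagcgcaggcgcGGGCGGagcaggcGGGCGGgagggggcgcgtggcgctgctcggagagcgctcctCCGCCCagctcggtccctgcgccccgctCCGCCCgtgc
Rab10, chr6:32039505-32039804, minus strand: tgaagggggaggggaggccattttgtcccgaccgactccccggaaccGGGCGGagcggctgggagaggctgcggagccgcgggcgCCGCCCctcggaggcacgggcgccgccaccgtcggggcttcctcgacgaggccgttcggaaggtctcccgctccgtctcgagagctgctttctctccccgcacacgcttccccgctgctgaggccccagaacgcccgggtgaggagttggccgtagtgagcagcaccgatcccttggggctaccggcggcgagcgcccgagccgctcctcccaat
Rab39a, chr8:63002004-63002303, minus strand: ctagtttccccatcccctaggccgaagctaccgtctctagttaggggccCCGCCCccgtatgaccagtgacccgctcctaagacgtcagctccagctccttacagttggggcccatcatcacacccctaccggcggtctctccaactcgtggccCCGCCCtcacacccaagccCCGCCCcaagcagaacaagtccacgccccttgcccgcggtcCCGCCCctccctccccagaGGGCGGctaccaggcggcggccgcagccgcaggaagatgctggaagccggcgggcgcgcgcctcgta
Rab3a, chr16:18722224-18722523, minus strand: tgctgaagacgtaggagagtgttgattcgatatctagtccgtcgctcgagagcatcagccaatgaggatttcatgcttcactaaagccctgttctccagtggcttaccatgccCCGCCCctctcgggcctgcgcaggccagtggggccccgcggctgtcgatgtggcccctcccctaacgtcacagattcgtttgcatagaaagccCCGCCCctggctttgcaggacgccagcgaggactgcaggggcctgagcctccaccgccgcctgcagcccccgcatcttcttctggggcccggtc
A promoter was found for 43 of the 53 Rab symbols. A GC box on either strand was present in 35 of these 43 (81.4%), against 34.9% of all 27457 RefSeq promoters of this length. Rab6b held 6, Rab39a 5, and Rab10 and Rab3a 2 each. The median GC content was 64.3% in the Rab promoters and 52.3% in all. A TATA box (TATAAA, either strand) was in 0 of the 43, against 14.3% of all. The E-box core of lysosomal genes (CACGTG) was in 4, those of Rab5a, Rab20, Rab21 and Rab31, which is 9.3% against 6.65% of all. The AP-1 letters (TGANTCA) were in 4 (Rab4b, Rab9a, Rab27b and Rab34), 9.3% against 7.33%, and the cyclic AMP response element (TGACGTCA) in that of Rab25 only, 2.33% against 1.91%. No motif searched contains another, and a match describes the sequence and not a bound site.

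The Rab transcripts covered a wide range of levels. Averaged over the 6 libraries, 6 rows had at least 100 FPKM, 27 had 10 to 100, 14 had 1 to 10 and 7 had less than 1. Of the 6 most abundant, 4 are endosomal (Rab11a, Rab14, Rab7a and Rab5a) and 2 secretory (Rab3a and Rab2a). The 7 rows under 1 FPKM were Rab36, Rab9b, Rab7b, Rab1b, Rab19, Rab25, the epithelial recycling Rab, and Rab3c, and they were not tested. All Rab rows together summed to 3459 and 4412 FPKM in PE+TSA+shJIP1, 4021 and 3950 FPKM in PE+TSA, and 2969 and 2060 FPKM in PE. Rab11a and Rab3a made up much of that difference. Without these 2 genes the sums were 1790 and 1701 FPKM in PE+TSA+shJIP1, 1783 and 1805 FPKM in PE+TSA, and 1833 and 1558 FPKM in PE, so the lowest and the highest of the 6 sums were both PE libraries.

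**Figure D1:**
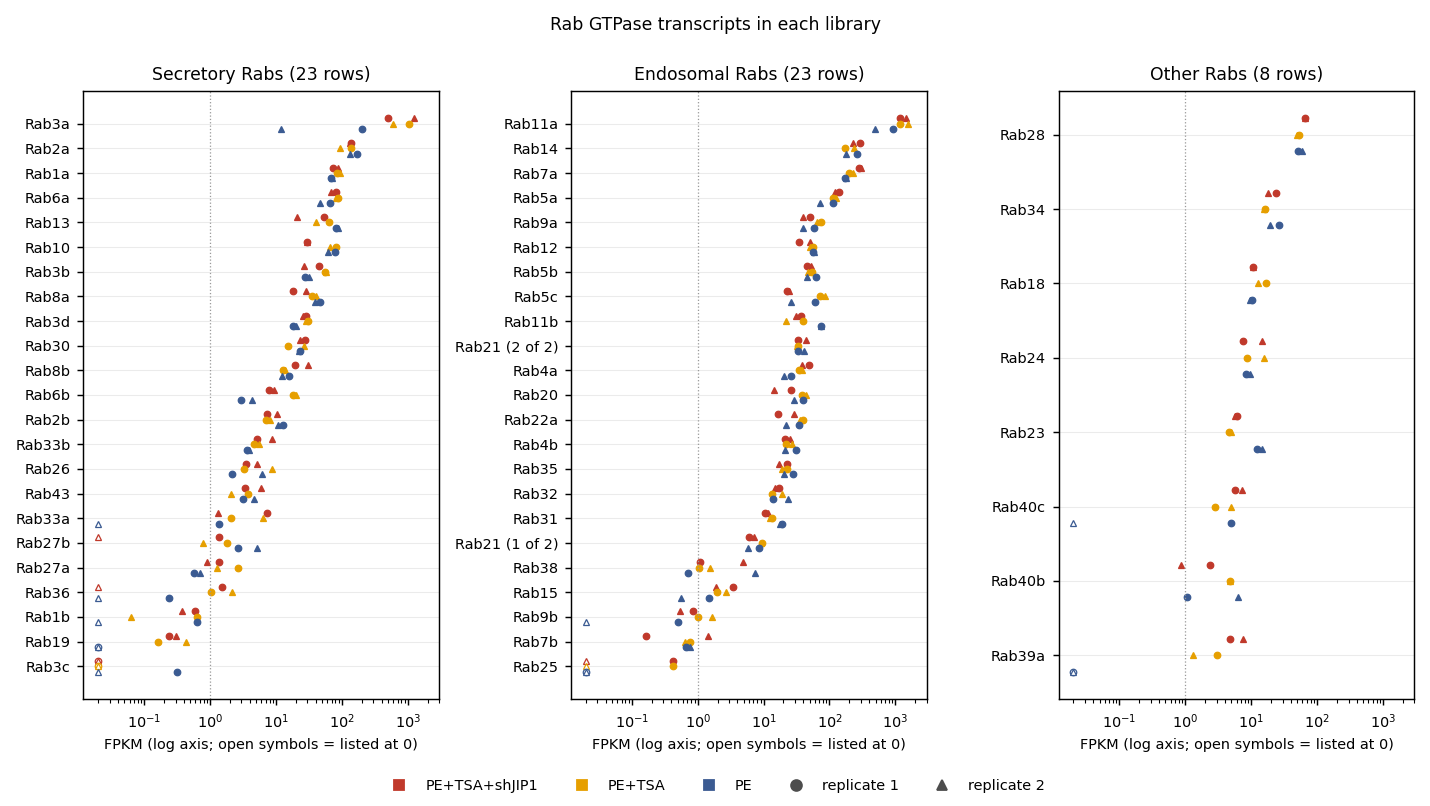
FPKM of the Rab rows in each library on a log scale, secretory, endosomal and other Rabs apart, with groups in the order PE+TSA+shJIP1, PE+TSA and PE, open symbols for values listed at 0 and a dotted line at 1 FPKM. Rab11a is the most abundant on average, and Rab3a is the row whose PE libraries, 206 and 11.9 FPKM, lie farthest apart.

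Libraries of a group differed among the Rabs by about as much as among all genes. The median absolute difference between replicates on the log2 scale was 0.337 for the Rabs and 0.304 for all features in PE+TSA+shJIP1, 0.21 for the Rabs and 0.303 for all in PE+TSA, and 0.402 for the Rabs and 0.385 for all in PE. More than 1 log2 unit separated the replicates of 5 of the 47 tested Rab rows in PE+TSA+shJIP1, 2 in PE+TSA and 7 in PE. Over all features tested this held for 8.07%, 7.74% and 14.6% in the same groups. Among the Rabs, Rab3a in PE was the widest at 4.0.

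The comparison of PE+TSA with PE asks what TSA does in phenylephrine-treated myocytes. A single Rab was called, Rab6b, which was higher with TSA. It is 1 of 47 tested rows (2.13%), beside 0.811% of all features called in either direction (84 of 10359) and 0.627% called higher and 0.183% lower. Among the 47, 26 were higher and 21 lower, with a median change of 0.29 against 0.10 over all features, and 11 had an unadjusted p under 0.05 (23.4%, against 18.7% of all). The groups did not overlap for 28 rows, 20 of them higher and 8 lower, which is 59.6% against 50.6% of all, of which 29.5% were higher and 21.1% lower. The median was 0.35 for the 19 secretory Rabs tested, 0.10 for the 20 endosomal Rabs and 0.43 for the 8 others. Without PE replicate 1 the called Rab was Rab3a in place of Rab6b, and without any other single library limma called none.

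The comparison of PE+TSA+shJIP1 with PE+TSA asks what the JIP1 hairpin adds. No Rab was called by limma (0 of 47, beside 0.29% of all features, 0.183% higher and 0.106% lower), and 9 had an unadjusted p under 0.05, 3 higher and 6 lower (19.1%, against 14.9% of all). For 24 rows the groups did not overlap, 9 higher and 15 lower, which is 51.1% against 50% of all, with 24.9% higher and 25.1% lower. The median change was -0.06 over the 47 rows and -0.0031 over all features, with -0.16 for the secretory, -0.05 for the endosomal and 0.30 for the other Rabs.

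Against PE, the PE+TSA+shJIP1 group shares its reference libraries with the TSA comparison and its own libraries with the hairpin comparison, so the 3 are not independent. Here 2 Rabs were called, Rab39a higher and Rab10 lower (4.26%, beside 8.27% of all features, 4.11% higher and 4.16% lower), and 15 had an unadjusted p under 0.05 (31.9%, against 30.7%). Rab39a is listed at 0 in both PE libraries and passed the filter only through the groups with TSA, so its direction was fixed by the filter. The groups of 29 rows did not overlap, 18 higher and 11 lower, which is 61.7% against 60.6% of all, with 33.9% higher and 26.7% lower. The median change was 0.09 against 0.10 over all features, with 0.22 for the secretory and -0.11 for the endosomal Rabs. Without PE replicate 1, 3 Rabs were called (Rab39a, Rab3a and Rab40c), and without any other single library none was. Without PE replicate 1, PE is the shallow PE replicate 2 alone, which lists Rab39a and Rab40c at 0. In PE+TSA+shJIP1 against PE and in the hairpin comparison, the shares of called and of non-overlapping Rabs lay near or below those of all features.

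**Figure D2:**
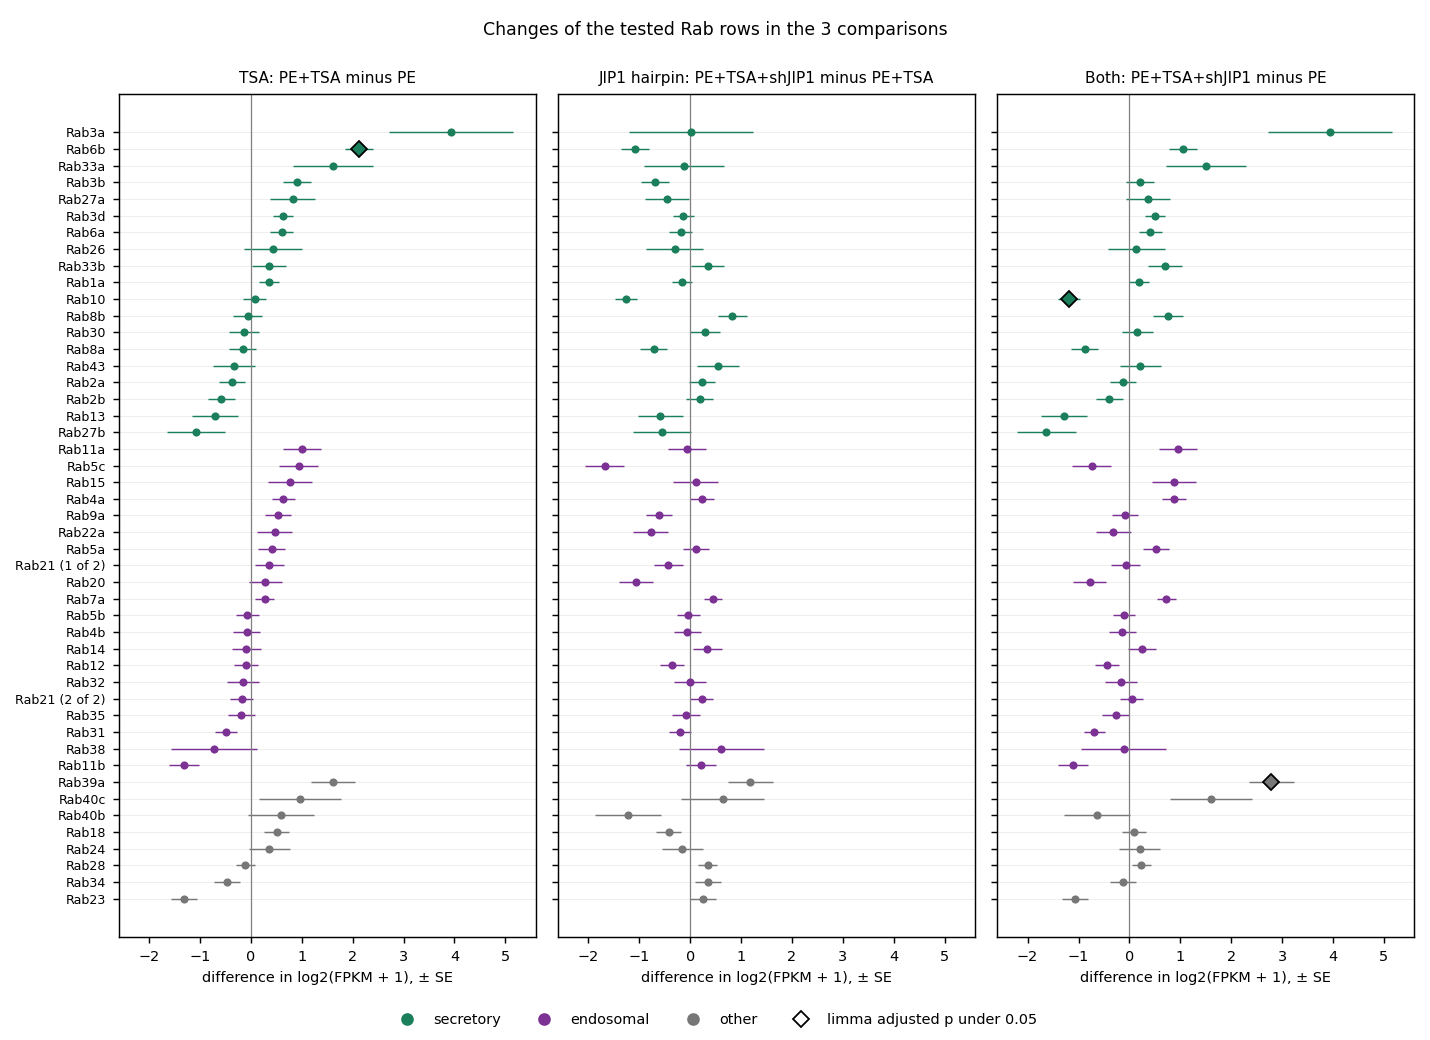
Change in log2(FPKM + 1) of the 47 tested Rab rows in the 3 comparisons, with bars for the standard error and black-edged diamonds for adjusted p under 0.05. Rab6b at 2.13 with TSA is the diamond of the TSA comparison, and Rab39a and Rab10 are those of PE+TSA+shJIP1 against PE.

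Among the secretory Rabs, the Golgi gene Rab6b, the Rab6 isoform abundant in brain, had 7.86 and 9.31 FPKM in PE+TSA+shJIP1, 18.3 and 20.1 FPKM in PE+TSA, and 2.92 and 4.40 FPKM in PE. The 3 groups did not overlap, and the hairpin libraries lay between the others. Its level rose with TSA by 2.13 ± 0.28 (adjusted p = 0.0379). With the hairpin the difference was -1.08 ± 0.28 (adjusted p = 0.173), and PE+TSA+shJIP1 differed from PE by 1.05 ± 0.28 (adjusted p = 0.0653). Without any one library the TSA call was lost, with an adjusted p of 0.0515 without PE replicate 1, 0.131 without PE replicate 2, 0.175 without PE+TSA replicate 1, 0.373 without PE+TSA replicate 2, and 0.130 and 0.135 without the hairpin replicates 1 and 2, while the change itself stayed between 1.90 and 2.36. Its partner Rab6a, added after its values were seen, had 81.7 and 68.2 FPKM in PE+TSA+shJIP1, 88.2 and 82.3 FPKM in PE+TSA, and 65.9 and 47.2 FPKM in PE. Rab6b made up 8.78% and 12.02% of the FPKM of this pair in PE+TSA+shJIP1, 17.2% and 19.7% with PE+TSA, and 4.25% and 8.53% in PE.

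Rab3a drives regulated release of synaptic and dense-core vesicles and was the most abundant secretory Rab. It had 507 and 1242 FPKM in PE+TSA+shJIP1, 1049 and 589.9 FPKM in PE+TSA, and 206 and 11.9 FPKM in PE. All 4 libraries with TSA lay above both PE libraries, and the PE libraries differed from each other by 4.0 on the log2 scale. The difference with TSA was 3.93 ± 1.22 (adjusted p = 0.175), and that of PE+TSA+shJIP1 against PE 3.94 ± 1.22 (adjusted p = 0.0923). Both rest on which PE library is used: without PE replicate 1 they were 5.93 (adjusted p = 0.0343) and 5.94 (adjusted p = 0.0226), and without the shallow PE replicate 2 they were 1.93 (adjusted p = 0.326) and 1.94 (adjusted p = 0.173). With the hairpin the difference was 0.01 ± 1.22 (adjusted p = 0.998). The related Rab3b had 44.8 and 26.9 FPKM in PE+TSA+shJIP1, 56.4 and 56.5 FPKM in PE+TSA, and 28.0 and 31.7 FPKM in PE. Rab3d, a granule Rab, had 28.3 and 26.0 FPKM in PE+TSA+shJIP1, 30.8 and 28.9 FPKM in PE+TSA, and 17.9 and 20.1 FPKM in PE. Both were above PE in every PE+TSA library, by 0.90 ± 0.27 (adjusted p = 0.17) for Rab3b and 0.63 ± 0.20 (adjusted p = 0.179) for Rab3d. Rab3c was listed at 0 in 5 libraries and at 0.318 FPKM in PE replicate 1.

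Markers of neurons and Schwann cells were also higher with TSA. Of 8 such markers 7 were listed and 5 tested on 6 rows, since Syt1 has 2 listings. The mean of all 6 rows was higher in PE+TSA than in PE, and 1 was called, Snap25, the vesicle fusion protein. Their summed level was 33.7 to 37.4 FPKM in PE+TSA+shJIP1, 74.0 to 79.6 FPKM in PE+TSA, and 6.76 to 7.22 FPKM in PE. Listing 1 of Syt1 rests on PE+TSA replicate 1, and without it the sums were 33.3 to 37.4 FPKM in PE+TSA+shJIP1, 56.6 to 74.0 FPKM in PE+TSA and 6.76 to 7.22 FPKM in PE. Snap25 had 20.0 and 21.8 FPKM in PE+TSA+shJIP1, 39.3 and 49.9 FPKM in PE+TSA, and 0.22 and 0 FPKM in PE, while the Schwann cell factor Sox10 was listed at 0 in 5 libraries. In bulk RNA, fewer cells of a type and less RNA per cell cannot be told apart, and the part of other cell types in the Rab values was not tested. Summed levels of fibroblast markers were 564 to 675 FPKM in PE+TSA+shJIP1, 523 to 728 FPKM in PE+TSA and 1048 to 1702 FPKM in PE, and those of smooth muscle and pericyte markers were 486 to 509.9, 248 to 390.4 and 1316 to 1637 FPKM in the same groups. Endothelial markers summed to 8.08 to 11.6, 17.0 to 37.8 and 13.2 to 15.6 FPKM, and macrophage markers to 5.15 to 7.70, 7.03 to 13.2 and 11.6 to 17.6 FPKM, again in that order of groups.

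Rab10, which delivers the glucose transporter GLUT4 in fat cells and new membrane to growing axons, was the secretory Rab called lower. It had 30.0 and 29.9 FPKM in PE+TSA+shJIP1, 82.4 and 65.0 FPKM in PE+TSA, and 78.1 and 61.9 FPKM in PE. The hairpin libraries stood below the other 4, which overlapped each other. Rab10 fell by 1.19 ± 0.22 in PE+TSA+shJIP1 against PE (adjusted p = 0.0319). The difference from PE+TSA was of like size, -1.26 ± 0.22, and did not pass (adjusted p = 0.0923), and PE+TSA and PE differed by 0.07 ± 0.22 (adjusted p = 0.879). Leaving out any one library ended the call, with an adjusted p of 0.0636 and 0.0852 without PE replicates 1 and 2, 0.0686 and 0.0689 without PE+TSA replicates 1 and 2, and 0.136 and 0.183 without hairpin replicates 1 and 2.

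The closest relatives of Rab10, Rab8a and Rab8b, carry cargo from the Golgi to the cell surface and differed in opposite directions with the hairpin, neither past the test. Rab8a had 18.0 and 28.3 FPKM in PE+TSA+shJIP1, 35.3 and 40.6 FPKM in PE+TSA, and 46.2 and 39.1 FPKM in PE. Rab8b had 19.3 and 31.2 FPKM in PE+TSA+shJIP1, 12.9 and 13.9 FPKM in PE+TSA, and 15.8 and 12.5 FPKM in PE. The hairpin difference was -0.72 ± 0.27 for Rab8a (adjusted p = 0.294) and 0.83 ± 0.29 for Rab8b (adjusted p = 0.268). As a share of the pair, Rab8a had 48.3% and 47.6% in PE+TSA+shJIP1, 73.2% and 74.5% with PE+TSA, and 74.5% and 75.7% in PE. The hairpin libraries thus had nearly equal levels of the pair, and the other 4 libraries held mostly Rab8a.

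The Rabs of the early secretory route varied less. Rab1a, which carries cargo from the endoplasmic reticulum to the Golgi, had 72.4 and 87.7 FPKM in PE+TSA+shJIP1, 85.5 and 93.3 FPKM in PE+TSA, and 68.98 and 70.5 FPKM in PE. Its near copy Rab1b ran from 0 to 0.644 FPKM over the 6 libraries. Rab2a, of the same step, had 140 and 133 FPKM in PE+TSA+shJIP1, 140 and 95.1 FPKM in PE+TSA, and 169 and 131 FPKM in PE. None of these passed the test, with adjusted p-values from 0.376 to 0.769 for Rab1a and Rab2a. Rab13, which serves cell junctions, had 54.2 and 21.2 FPKM in PE+TSA+shJIP1, 64.7 and 40.8 FPKM in PE+TSA, and 82.1 and 86.3 FPKM in PE. It lay below PE in all 4 TSA libraries, with a difference of -1.28 ± 0.45 in PE+TSA+shJIP1 against PE (adjusted p = 0.118). That difference was -0.63 without hairpin replicate 2 and -1.94 without hairpin replicate 1 (adjusted p = 0.384 and 0.108).

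The granule-docking pair was low throughout. Rab27a had 1.36 and 0.898 FPKM in PE+TSA+shJIP1, 2.67 and 1.29 FPKM in PE+TSA, and 0.578 and 0.707 FPKM in PE. Rab27b had 1.36 and 0 FPKM in PE+TSA+shJIP1, 1.83 and 0.789 FPKM in PE+TSA, and 2.70 and 5.10 FPKM in PE. Rab27a thus lay above PE in every library with TSA and Rab27b below it, with no call for either (adjusted p from 0.119 to 0.709). Rab27a averaged 0.643 FPKM in PE and passed the filter on low values only through the groups with TSA. Rab27b averaged 0.679 FPKM with the hairpin, 1.31 FPKM in PE+TSA and 3.90 FPKM in PE. Their directions are tied to how they passed the filter and are no result about the pair. Rab33a, a Golgi-type Rab of brain and immune cells, had 7.19 and 1.33 FPKM in PE+TSA+shJIP1, 2.07 and 6.29 FPKM in PE+TSA, and 1.38 and 0 FPKM in PE. Its replicates overlapped between the hairpin group and each of the others. With a mean of 0.691 FPKM in PE, it also passed the filter only through the groups with TSA.

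**Figure D3:**
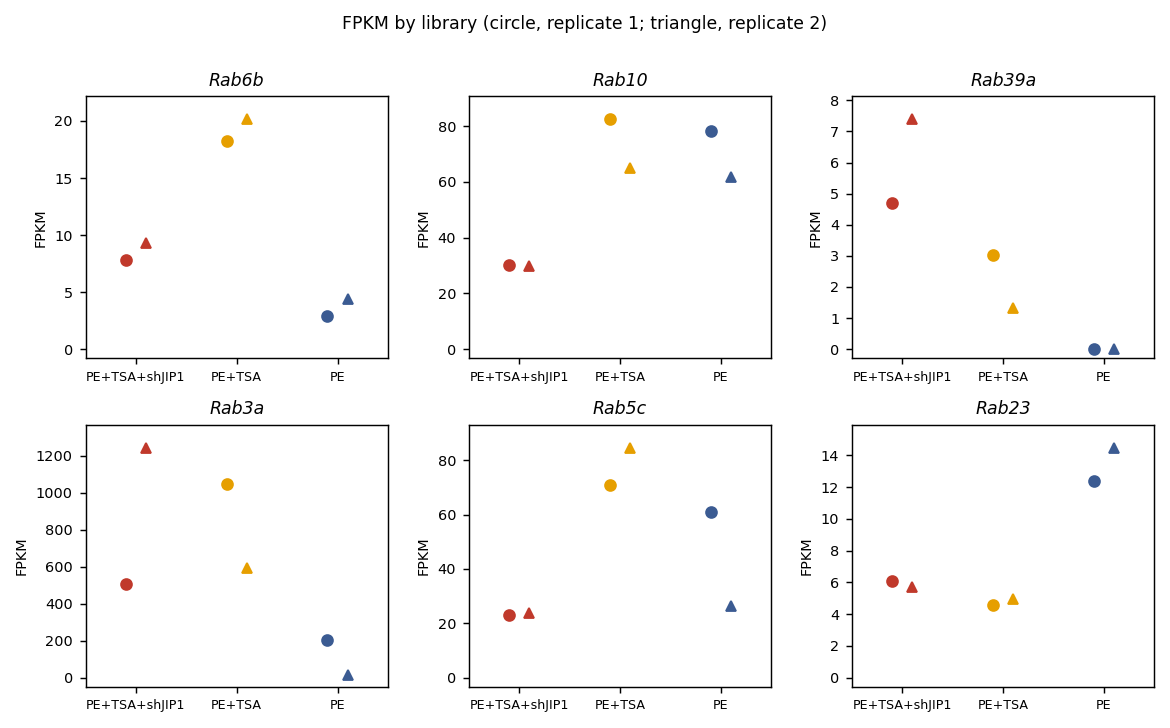
FPKM in each library of the Rabs the results turn on, with replicate 1 as a circle and replicate 2 as a triangle and the groups in the order PE+TSA+shJIP1, PE+TSA and PE. Rab6b is highest in PE+TSA, Rab10 and Rab5c are lowest in PE+TSA+shJIP1, and Rab39a is at 0 in both PE libraries.

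Among the endosomal Rabs none was called in any comparison. At unadjusted p under 0.05, limma gave 4 of 20 with TSA (20%, beside 18.7% of all features), 3 with the hairpin (15%, beside 14.9%) and 5 in PE+TSA+shJIP1 against PE (25%, beside 30.7%). For the 19 secretory Rabs the numbers were 5 (26.3%), 5 (26.3%) and 8 (42.1%) in the same comparisons. The 8 include Rab27b, whose direction is tied to the filter, and a difference between the classes was not tested. Rab11a, which governs slow recycling, was the most abundant Rab of all on average, with 1163 and 1469 FPKM in PE+TSA+shJIP1, 1189 and 1555 FPKM in PE+TSA, and 930.3 and 490.0 FPKM in PE. Every library with TSA exceeded both PE libraries, by 1.01 ± 0.37 in PE+TSA (adjusted p = 0.225). That difference was 1.47 without PE replicate 1 and 0.55 without the shallow PE replicate 2 (adjusted p = 0.089 and 0.521). Rab11b, its near copy, ran the other way, with 37.0 and 31.2 FPKM in PE+TSA+shJIP1, 39.1 and 21.8 FPKM in PE+TSA, and 73.3 and 75.3 FPKM in PE. The Rab11b difference was -1.32 ± 0.30 with TSA (adjusted p = 0.116) and -1.11 ± 0.30 in PE+TSA+shJIP1 against PE (adjusted p = 0.0695). Rab11b made up 3.08% and 2.08% of the pair in PE+TSA+shJIP1, 3.18% and 1.38% with PE+TSA, and 7.30% and 13.3% in PE. Reads shared by near-identical Rabs cannot be told apart in these values.

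The 3 Rab5 genes, which drive fusion of early endosomes, did not move together. Rab5c had 23.1 and 23.9 FPKM in PE+TSA+shJIP1, 71.0 and 84.6 FPKM in PE+TSA, and 60.9 and 26.2 FPKM in PE. The hairpin libraries were the lowest of the 6, at -1.68 ± 0.39 from PE+TSA (adjusted p = 0.147), the widest hairpin difference of any Rab in either direction. Rab5a had 138 and 119.6 FPKM in PE+TSA+shJIP1, 113 and 124 FPKM in PE+TSA, and 113 and 70.9 FPKM in PE. Rab5b had 46.3 and 53.0 FPKM in PE+TSA+shJIP1, 54.1 and 47.7 FPKM in PE+TSA, and 61.4 and 46.2 FPKM in PE. The hairpin difference was 0.12 ± 0.26 for Rab5a and -0.04 ± 0.22 for Rab5b (adjusted p = 0.88 and 0.961). Rab5c took 11.1% and 12.2% of the 3 genes' FPKM in PE+TSA+shJIP1, 29.8% and 33.0% with PE+TSA, and 25.9% and 18.3% in PE.

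On the late endosomal route, Rab7a, which sends endosomes to the lysosome, had 281 and 300.4 FPKM in PE+TSA+shJIP1, 201 and 224 FPKM in PE+TSA, and 173 and 178 FPKM in PE. The 3 groups did not overlap and stood in that order, with 0.45 ± 0.19 for the hairpin (adjusted p = 0.335) and 0.72 ± 0.19 for PE+TSA+shJIP1 against PE (adjusted p = 0.0628). Rab14, of endosomes and the trans-Golgi network, had 290.2 and 224 FPKM in PE+TSA+shJIP1, 173 and 234 FPKM in PE+TSA, and 258 and 179 FPKM in PE, and its groups overlapped throughout. Of the endosomal Rabs outside the naming rule, and chosen after their values were seen, the fast recycling gene Rab4a had 48.5 and 38.7 FPKM in PE+TSA+shJIP1, 34.9 and 38.4 FPKM in PE+TSA, and 26.5 and 20.3 FPKM in PE. It was higher than PE in all 4 libraries with TSA, by 0.87 ± 0.23 in PE+TSA+shJIP1 (adjusted p = 0.0665). Its share of the Rab4 pair was 69.7% and 60.4% in PE+TSA+shJIP1, 61.7% and 59.0% with PE+TSA, and 46.0% and 49.1% in PE. Rab20, of phagosomes, had 25.9 and 14.2 FPKM in PE+TSA+shJIP1, 38.4 and 44.6 FPKM in PE+TSA, and 39.6 and 28.8 FPKM in PE, a hairpin difference of -1.07 ± 0.33 (adjusted p = 0.222).

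The 2 listings of Rab21, which moves integrins, had mean levels of 7.60 and 36.4 FPKM and neither was called. With the hairpin, listing 1 lay below PE+TSA in both libraries, with a difference of -0.43 ± 0.29, and listing 2 above it, with 0.23 ± 0.22 (adjusted p = 0.534 and 0.694).

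**Figure D4:**
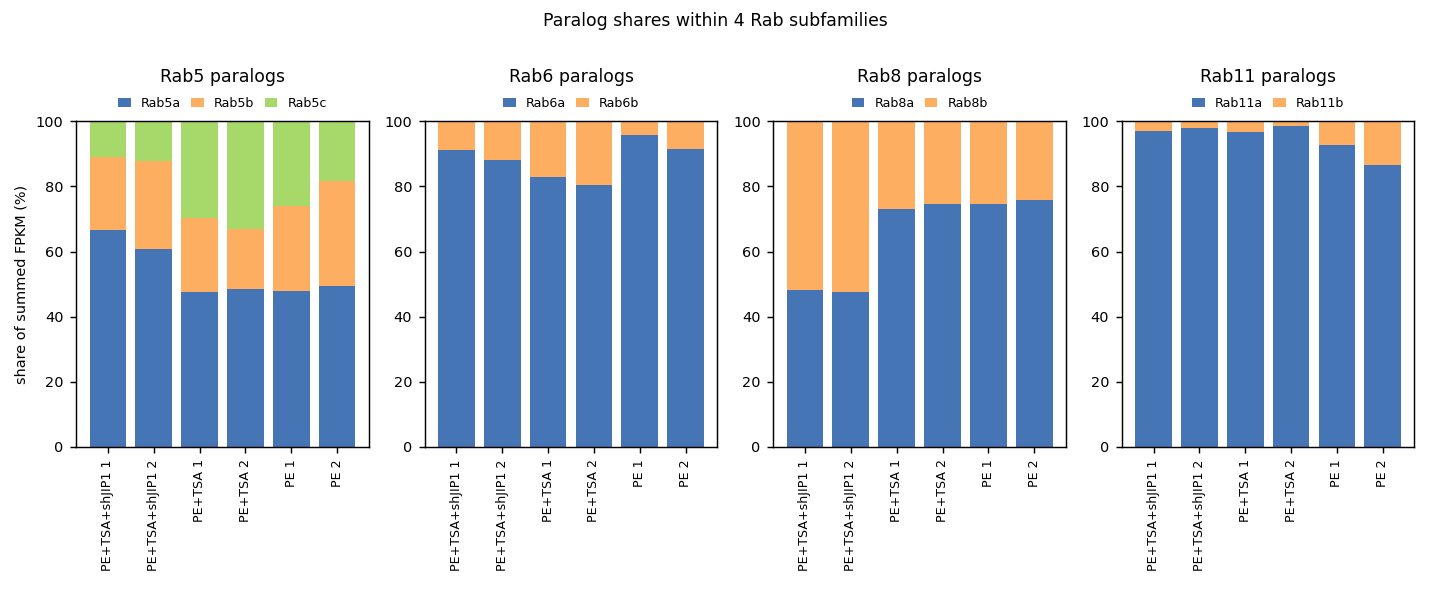
Share of the summed FPKM held by each gene of the Rab5, Rab6, Rab8 and Rab11 families in each library, with groups in the order PE+TSA+shJIP1, PE+TSA and PE. Rab8a held 48.3% and 47.6% of its pair with the hairpin, against 73.2% to 75.7% in the other 4 libraries.

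Of the other Rabs, Rab39a, known from phagosomes and autophagy, had 4.71 and 7.39 FPKM in PE+TSA+shJIP1, 3.02 and 1.33 FPKM in PE+TSA, and is listed at 0 in both PE libraries. The 3 groups did not overlap, and Rab39a was higher in PE+TSA+shJIP1 than in PE (adjusted p = 0.0232). It passed the filter on low values only through the groups with TSA, where it is high, so a gene kept in this way had to differ from PE. No fold is given against libraries at 0, and PE replicate 2 was shallow. The call held without PE replicate 1 (adjusted p = 0.0453) and was lost at 0.0863 without PE replicate 2, 0.0556 and 0.0561 without PE+TSA replicates 1 and 2, and 0.108 and 0.149 without hairpin replicates 1 and 2. The hairpin difference was 1.18 ± 0.44 (adjusted p = 0.295), and PE+TSA against PE gave an adjusted p of 0.148.

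Rab23, which restrains Hedgehog signalling in mouse embryos, had 6.08 and 5.70 FPKM in PE+TSA+shJIP1, 4.596 and 4.95 FPKM in PE+TSA, and 12.4 and 14.5 FPKM in PE. All 4 libraries with TSA lay below the PE libraries, with differences of -1.32 ± 0.25 in PE+TSA (adjusted p = 0.0843) and -1.06 ± 0.25 in PE+TSA+shJIP1 (adjusted p = 0.0536). Rab40b and Rab40c, adaptors of ubiquitin ligases, were unsteady. Rab40b had 2.36 and 0.846 FPKM in PE+TSA+shJIP1, 4.85 and 4.81 FPKM in PE+TSA, and 1.066 and 6.34 FPKM in PE. Rab40c had 5.64 and 7.31 FPKM in PE+TSA+shJIP1, 2.84 and 4.95 FPKM in PE+TSA, and 4.97 and 0 FPKM in PE. Its difference in PE+TSA+shJIP1 against PE was 1.60 with all libraries (adjusted p = 0.233). Without PE replicate 1 that difference was 2.89, set against the single value of 0 in the shallow PE replicate 2.

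The machinery that regulates Rabs was described from lists of 5 kinds, with 95 features tested in all. With TSA 1 of the 95 was called (1.05%, beside 0.811% of all features), with the hairpin 0 (beside 0.29%), and in PE+TSA+shJIP1 against PE 6, 4 higher and 2 lower (6.32%, beside 8.27%). At unadjusted p under 0.05, limma gave 9 with the hairpin (9.47%, beside 14.9% of all). The medians were 0.21, -0.08 and 0.05 in these comparisons, beside 0.10, -0.0031 and 0.10 over all features. These calls rest on all libraries: without PE replicate 1 there were 3 with TSA, all higher, and 6 against PE, and without any other single library 0 in both. The called gene with TSA was Rilp, the Rab7 effector that recruits the motor dynein to lysosomes, which had 1.85 and 2.47 FPKM in PE+TSA+shJIP1, 1.55 and 1.96 FPKM in PE+TSA, and 14.4 and 11.7 FPKM in PE. Rilp fell by 2.34 ± 0.31 with TSA (adjusted p = 0.0386) and by 2.15 ± 0.31 in PE+TSA+shJIP1 against PE (adjusted p = 0.0194), while Rab7a itself was highest in PE+TSA+shJIP1. Without single libraries the TSA call of Rilp was lost each time (adjusted p from 0.0584 without PE replicate 1 to 0.293 without PE+TSA replicate 2), and the call against PE held only without PE replicate 1 (adjusted p = 0.0439, against 0.0556 to 0.128 without each of the others). Of 25 endosomal effectors tested, Rilp was the called one in each of these comparisons.

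Of 13 secretory effectors tested, 3 were called in PE+TSA+shJIP1 against PE (23.1%, beside 8.27% of all features), and each call was lost without any one library. Mical1, which binds Rab8-type and Rab1-type proteins, had 11.003 and 12.1 FPKM in PE+TSA+shJIP1, 4.66 and 7.93 FPKM in PE+TSA, and 1.96 and 3.19 FPKM in PE, and rose by 1.83 ± 0.35 (adjusted p = 0.0336). Exoc6b, a subunit of the exocyst tether, had 16.1 and 20.6 FPKM in PE+TSA+shJIP1, 11.8 and 12.8 FPKM in PE+TSA, and 5.63 and 7.42 FPKM in PE, and rose by 1.36 ± 0.26 (adjusted p = 0.0333). Ehbp1l1, a Rab8 and Rab10 effector, had 43.6 and 43.3 FPKM in PE+TSA+shJIP1, 44.0 and 37.5 FPKM in PE+TSA, and 79.1 and 81.7 FPKM in PE, and fell by 0.87 ± 0.19 (adjusted p = 0.0434). For all 3 the PE+TSA libraries lay on the same side of PE as the hairpin libraries.

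Among 26 features of GTPase-activating proteins, 2 were called in that comparison, both higher (7.69%, beside 8.27% of all features, 4.11% higher). Without PE replicate 1 only that of Tbc1d19 held (adjusted p = 0.0365), and without any other library neither did. Sgsm3 had 5.84 and 9.63 FPKM in PE+TSA+shJIP1, 3.86 and 6.75 FPKM in PE+TSA, and 1.69 and 1.33 FPKM in PE (1.77 ± 0.39, adjusted p = 0.0459). Listing 2 of 2 of Tbc1d19 had 12.04 and 13.0 FPKM in PE+TSA+shJIP1, 16.6 and 11.1 FPKM in PE+TSA, and 4.70 and 2.02 FPKM in PE (1.71 ± 0.38, adjusted p = 0.0482). Its listing 1, with a mean of 1.25 FPKM over the libraries, differed by 0.03 ± 0.95 in that comparison (adjusted p = 0.99). None of 25 exchange factors and none of 7 genes of prenylation and recycling was called by limma in PE+TSA+shJIP1 against PE, with 8 (32%) and 3 (42.9%) of them at unadjusted p under 0.05, beside 30.7% of all features. The catalytic pair of the prenylating enzyme differed in direction, with 1.13 ± 0.27 for the alpha subunit Rabggta (adjusted p = 0.0554) and -0.75 ± 0.28 for the beta subunit Rabggtb (adjusted p = 0.133) in PE+TSA+shJIP1 against PE.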

How the data were processed

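The authors deposited a table of FPKM values per gene with a column per library. Its header names no unit; Cufflinks and rn6 appear, without version or role, per the submitters' processing notes. The aligner, gene models and strandedness remain not given in the sources used here. Values were used as deposited. Features averaging 1 FPKM or more entered limma 3.58.1 (R 4.3.3) as log2(FPKM + 1), with all 3 groups in a single fit, a mean-dependent prior (3 residual and 3.27 prior degrees of freedom) and Benjamini-Hochberg adjustment over all 10359 features at 0.05. P-values are two-sided. The method was tested on simulated data. There each gene had the same spread in every library of the fit, so a shallow library such as PE replicate 2 was not represented. Every row was its own feature. Absolute depth is unknown, so no counting intervals are given. Relative depth came from the most frequent ratio of values under 0.3 FPKM to those of PE replicate 1. PE replicate 2 had many more zeros and was treated otherwise. There the limit held only for PE replicate 1, and the largest of the frequent ratios was taken as 1 read in each (30 features held it). Members, lists and roles were chosen with earlier results of these data known. Named with values were called Rabs, the 3 largest differences each way per comparison, the 6 most abundant and the best-known core and exocytic Rabs. Regulator lists covered prenylation and recycling, exchange factors, GTPase-activating proteins, and secretory and endosomal effectors. Alternatives were the pseudocount, the filter, scaling, the replicate block, a fit of 2 groups, unique symbols and leaving out each library.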

Additional observations from a re-analysis of the deposited data

How the results depend on the processing

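Of 416 recomputed values for 30 changes of named Rabs, 387 kept their direction and side of the threshold, 24 kept direction and lost the call, 5 gained it and 0 reversed. These changes had an unadjusted limma p under 0.05 with all libraries, so few could reverse, and most were not called there. The 24 losses were all of called changes. Rab6b with TSA kept its call in 4 of 14 alternatives. In PE+TSA+shJIP1 against PE, Rab10 kept it in 6 of 14 and Rab39a in 7 of 13. Rab23, not called there in the main fit, passed in 2 of 14, with TMM scaling (adjusted p = 0.0479) and unique symbols (adjusted p = 0.0477). With all libraries, features called numbered 84 with TSA, 30 with the hairpin and 857 for PE+TSA+shJIP1 against PE. With no filter on low values these were 3, 0 and 374, with only the 2 groups compared 5, 8 and 4, and without single libraries 6 to 203, 7 to 16 and 4 to 941. Rabs called with TSA fell to 0 with no filter, quantile normalization and only the 2 groups. Without single libraries they ranged from 0 to 1. For the hairpin they were 0 in every alternative. In PE+TSA+shJIP1 against PE there was 1 with no filter, 1 with a filter of 5 FPKM, 0 with only the 2 groups and 0 to 3 without single libraries. Regulators called with TSA were 0 with a pseudocount of 0.1, no filter, a filter of 5 FPKM and only the 2 groups, and 0 to 3 without single libraries. In PE+TSA+shJIP1 against PE they were 2 with no filter, 0 with only the 2 groups and 0 to 6 without single libraries. The labels do not say whether a replicate number marks a shared culture. Deviations of same-numbered libraries correlated at 0.0735, 0.0396 and 0.122 over all features, while 8 of the 10 cardiomyocyte markers were higher in replicate 1 than in replicate 2 in all 3 groups, so pairing was not established. With a replicate block, called features were 28 with TSA and 18 with the hairpin, TSA calls of Rabs and of regulators were 0 (Rab6b had an adjusted p of 0.0576), and Rab7a passed in PE+TSA+shJIP1 against PE (adjusted p = 0.0482).

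The median Rab change with TSA was 0.073 with a filter of 5 FPKM, 0.22 with TMM scaling and 0.12 to 0.33 without single libraries. That of the secretory Rabs was 0.21 with the 5 FPKM filter, 0.29 with TMM, 0.18 with quantile normalization and 0.24 to 0.42 without single libraries, and that of all features was -0.021 with quantile normalization and 0.0029 to 0.17 without single libraries. For the hairpin, the secretory median was -0.21 with quantile normalization and -0.19 to -0.060 without single libraries. In PE+TSA+shJIP1 against PE the Rab median was -0.076 with the 5 FPKM filter, -0.040 with quantile normalization and -0.068 to 0.18 without single libraries. Its secretory median was 0.15 with TMM, 0.12 with quantile normalization and 0.17 to 0.30 without single libraries, its endosomal median -0.31 to 0.045, and the median of all features 0.01 with quantile normalization and 0.02 to 0.16 without single libraries. The cause of these shifts was not tested. The depth of PE replicate 2 limits what can be said of Rabs under 1 FPKM.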
